A study of Mus musculus with 12 samples.

Results

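Smooth muscle cells (SMCs) of the descending thoracic aorta were compared between mice with and without deletion of the TGF-β receptor genes *Tgfbr1* and *Tgfbr2*. The comparison rests on the 6 descending libraries of a series of 12, namely 3 from GFPiSMC mice and 3 from Tgfbr1/2iSMCKO mice, refitted without the 6 ascending/arch libraries of the same animals. GFPiSMC mice carried *Myh11*-CreERT2 with the mT/mG reporter, and Tgfbr1/2iSMCKO mice carried in addition floxed *Tgfbr1* (f/f) and floxed *Tgfbr2* (f/f). All were male C57BL/6J mice of 12 weeks that had received tamoxifen for 5 days, by intraperitoneal injection. By the study's methods and its description of these libraries the dose was 2 mg per day from 11 weeks, so that cells were taken about 1 week after induction began, while the labels also name 1 mg per day from 4 weeks, which the methods give for a separate subgroup. The *Myh11* promoter restricts the inducible Cre to SMCs and related mural cells, and viable GFP-positive cells were sorted after enzymatic digestion of the aorta. GFP reports recombination of the reporter and not of the receptor alleles. Because the control mice have no floxed alleles, the mouse line and the deletion cannot be told apart in these libraries. Each library is from a separate animal by its number in the labels, so that p values describe the spread between 3 animals and 3 animals.

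TGF-β ligands bind the type II receptor, TGFBR2, which recruits and phosphorylates the type I receptor, TGFBR1. The activated type I receptor phosphorylates SMAD2 and SMAD3, which enter the nucleus with SMAD4 and act with other factors on target genes. In SMCs of the aortic media the pathway is known for promoting the synthesis of extracellular matrix (ECM) and of contractile proteins, and it switches on its own inhibitors, such as *Pmepa1* and *Smad7*.

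The libraries held 22900103 to 31392396 counts, from 9208 to 20000 sorted cells. Summed levels of 8 SMC markers were between 47500 and 53800 CPM (CPM are counts scaled to library size with edgeR's TMM factors, the level used below) in GFPiSMC and between 40900 and 50100 CPM in Tgfbr1/2iSMCKO. Markers of macrophages and leukocytes summed to no more than 27.5 CPM, of mesothelium to 3.96 CPM, and of Schwann and neural cells to 7.31 CPM in any library, with no list entirely at 0. Striated muscle markers summed to 25.5 to 54.2 CPM, and erythroid markers to 101 CPM in GFPiSMC replicate 3, which stood apart, and to no more than 4.19 CPM in the other libraries. Endothelial markers summed to 91.3 to 112 CPM and 89.1 to 103 CPM, with *Pecam1* the most abundant. Of the 9 endothelial markers tested, however, 4 lay entirely above the controls in Tgfbr1/2iSMCKO (beside 7.45% of all genes) and 1 below (beside 8.34%). The median log2 fold change was 1.09, and 5 had an unadjusted p under 0.05 (beside 9.40% of all genes), with none past the adjusted test. The 4 that lay above were low in every library. *Tek* was at 0.114, 0.104, and 0.161 CPM in GFPiSMC and 3.65, 2.02, and 0.731 CPM in Tgfbr1/2iSMCKO (adjusted p = 0.0622), and *Vwf* at 1.52, 1.59, and 3.18 CPM and 4.81, 3.91, and 6.88 CPM. Summed fibroblast markers followed the library and not the genotype, and were set mostly by *Gsn*, the most abundant at a mean of 473 CPM. They were at 729 CPM in GFPiSMC replicate 2 and 1070 CPM in Tgfbr1/2iSMCKO replicate 3, which had 9208 and 12000 sorted cells. They were at 280 CPM in GFPiSMC replicate 3 and 214 CPM in Tgfbr1/2iSMCKO replicate 2, which had 16114 and 20000 sorted cells. The share of mitochondrially encoded counts was 2.99% and 2.49% in the first pair of libraries and 4.77% and 4.98% in the second. In bulk libraries, fewer cells of a type and less RNA per cell cannot be told apart.

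Counts of the deleted genes do not separate the floxed exons from the rest of the transcript. *Tgfbr1* was at 195, 196, and 239 CPM in GFPiSMC replicates 1, 2, and 3 and at 241, 264, and 268 CPM in Tgfbr1/2iSMCKO replicates 1, 2, and 3, the order used for all values below. *Tgfbr2* was at 88.2, 110, and 98.0 CPM and at 68.2, 83.8, and 86.8 CPM. The Tgfbr1/2iSMCKO libraries lay above the controls for the type I receptor and below them for the type II receptor, and neither difference passed the test (log2 fold change 0.29, SE 0.17, adjusted p = 0.694, and −0.31, SE 0.19, adjusted p = 0.738). The values therefore do not check the genotype labels.

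In descending Tgfbr1/2iSMCKO SMCs the genes that fell included many matrix genes, TGF-β target genes, and *Mylk4*, a myosin light chain kinase, and the genes that rose were fewer. Of 19197 genes tested, 114 (0.594%) were called lower and 34 (0.177%) higher, where a call needs a Benjamini-Hochberg p below 0.05 together with a difference beyond 2-fold. In these 148 genes the libraries of the groups did not overlap. Over all tested genes the Tgfbr1/2iSMCKO libraries lay entirely below the controls for 1601 genes (8.34%) and entirely above them for 1430 genes (7.45%), so that separation alone was far more common than a call. An unadjusted p under 0.05 was reached by 1805 genes (9.40%). Among the lower genes the median log2 fold change was −2.11, 61 had changed more than 4-fold, 99 had a mean of at least 100 counts, and 100 were annotated as protein coding. Among the higher genes the median was 2.56, 24 had a mean of at least 100 counts, and 19 were protein coding, while 10 carried a pseudogene annotation. In the quartile of genes with the highest counts, 72 were lower and 8 higher, and in the next quartile 22 and 14.

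**Figure D1:**
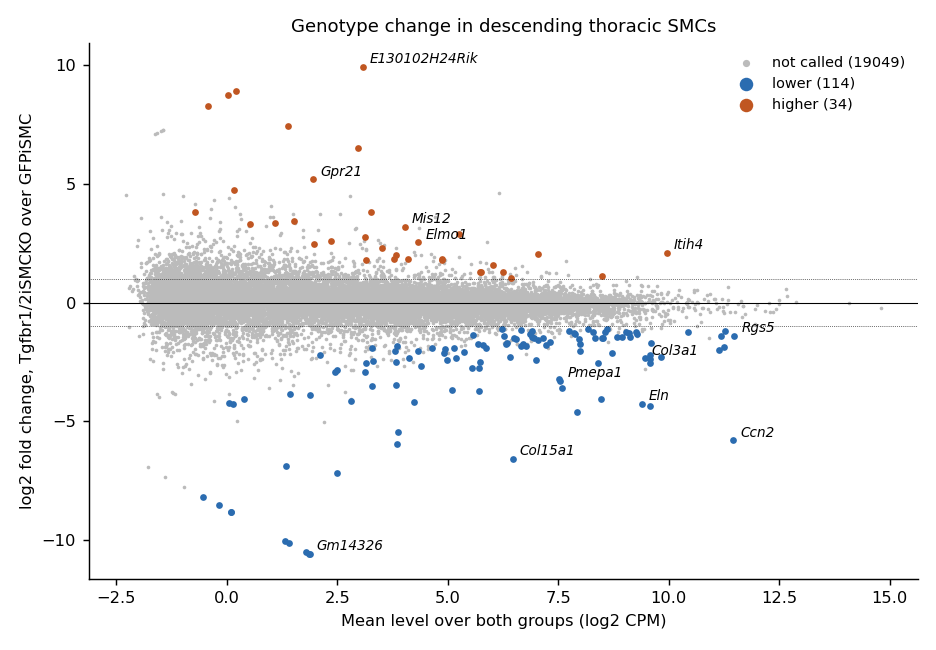
Mean level of each of the 19197 tested genes over both groups (x axis, log2 CPM) against its log2 fold change in descending SMCs, Tgfbr1/2iSMCKO over GFPiSMC (y axis). Blue points are the 114 genes called lower, orange points the 34 called higher, and dotted lines mark a 2-fold change. Called genes above 8 on the x axis lie mostly below 0, and the largest rises lie to the left.

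The counts of calls fell with each single library left out, by amounts that differed with the library. Leaving out a library also leaves fewer to test, and its part in the fall was not tested. Without Tgfbr1/2iSMCKO replicate 1, 30 genes were lower and 4 higher, and without GFPiSMC replicate 1, 37 were lower and 9 higher. The log2 of the number of sorted cells as a covariate, an alternative chosen after the data were seen, gave 198 lower and 166 higher genes, with 111 and 32 shared with the genes called above. The calls of 11 genes held under all 16 alternatives, namely *Eln*, *Mfap4*, *Lox*, *Col3a1*, *Mylk4*, *Pmepa1*, *Nupr1*, *Wdr95*, and the noncoding *Gm6969*, *Gm15270*, and *AA465934*. The calls of 30 genes, 26 lower and 4 higher, held with each of the 6 libraries left out. For other called genes described in detail below, the highest adjusted p over these left-out fits is given with the library whose removal gave it.

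Matrix genes were the group with the most calls. Over all genes, 0.594% were called lower and 0.177% higher, the shares to set beside the counts of list members below. The 17 ECM genes that the study names for these cells were all lower, with log2 fold changes from −6.59 to −1.26 and a median of −2.0, beside a median of 0.036 over all genes. The study chose them on these libraries, so this count is not independent evidence of their direction. They held 2.19% ± 0.206 of the counts in GFPiSMC and 0.448% ± 0.0196 in Tgfbr1/2iSMCKO (mean ± SD, n = 3 each), or 4.90 times less. This share is a description and has no test, since the genes were picked as lower. Of 36 collagen genes tested, 8 were lower and none was higher, with a median log2 fold change of −0.71, and all 8 are among the 17. The share of counts in all collagen genes was 0.633% ± 0.0571 and 0.264% ± 0.00208.

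Among the collagens, *Col15a1*, which encodes a basement membrane zone collagen of the multiplexin type, was at 198, 173, and 154 CPM in GFPiSMC and at 2.24, 2.95, and 0.332 CPM in Tgfbr1/2iSMCKO libraries. It fell 96.2-fold (log2 fold change −6.59, SE 0.69, adjusted p = 0.00558), and without Tgfbr1/2iSMCKO replicate 1 the adjusted p was 0.0593. *Col3a1*, which forms fibrils together with type I collagen, was at 1196, 1114, and 1210 CPM and at 220, 235, and 233 CPM, with little spread in either group (log2 fold change −2.35, SE 0.15, adjusted p = 0.00068). The type I collagen genes *Col1a2* and *Col1a1* fell less. *Col1a2* was at 1246, 1199, and 1123 CPM and at 344, 362, and 386 CPM, and *Col1a1* at 598, 585, and 417 CPM and at 162, 143, and 257 CPM. The call of *Col1a1* (log2 fold change −1.51, adjusted p = 0.0495) was lost without any of 5 of the 6 libraries and reached 0.284 without Tgfbr1/2iSMCKO replicate 1. *Col5a2*, *Col4a2*, *Col4a5*, and *Col18a1* fell by 1.79, 1.48, 1.26, and 1.27 on the log2 scale, and the last 3 lost their calls without at least 1 library (highest adjusted p = 0.0742 without GFPiSMC replicate 1, 0.198 without Tgfbr1/2iSMCKO replicate 1, and 0.119 without GFPiSMC replicate 1). *Col4a1*, the partner of *Col4a2* in the basement membrane network and its neighbor on the opposite strand, was at 663, 424, and 107 CPM and at 234, 288, and 158 CPM, so that its groups overlapped. *Col6a3* had an adjusted p of 0.0476 with a log2 fold change of −0.90, under the 2-fold limit.

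The elastic fiber genes were led by *Eln*, which encodes tropoelastin. It was at 1242, 1437, and 1136 CPM in GFPiSMC and at 90.7, 50.2, and 56.5 CPM in Tgfbr1/2iSMCKO libraries, a 19.3-fold fall (log2 fold change −4.27, SE 0.28, adjusted p = 0.00068). *Mfap4*, a microfibril-associated glycoprotein that binds elastin, followed it with 747, 674, and 594 CPM against 48.4, 29.8, and 42.8 CPM. *Lox*, the lysyl oxidase that crosslinks elastin and collagen, was at 553, 549, and 619 CPM against 90.8, 102, and 104 CPM. *Fbln5*, which organizes elastin on microfibrils, was at 1386, 1502, and 1042 CPM against 261, 141, and 280 CPM (highest adjusted p = 0.0664 without Tgfbr1/2iSMCKO replicate 1). *Ltbp3*, a latent TGF-β binding protein, was also lower (log2 fold change −1.82), with a highest adjusted p of 0.227 without the same library. These 5 were all of the 25 tested members of the elastic fiber and microfibril list that passed, in either direction, and the median of the list was −0.55. *Fbn1*, the main microfibril gene, was at 310, 318, and 224 CPM against 179, 184, and 213 CPM, which did not overlap but did not pass (log2 fold change −0.56, adjusted p = 0.357).

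**Figure D2:**
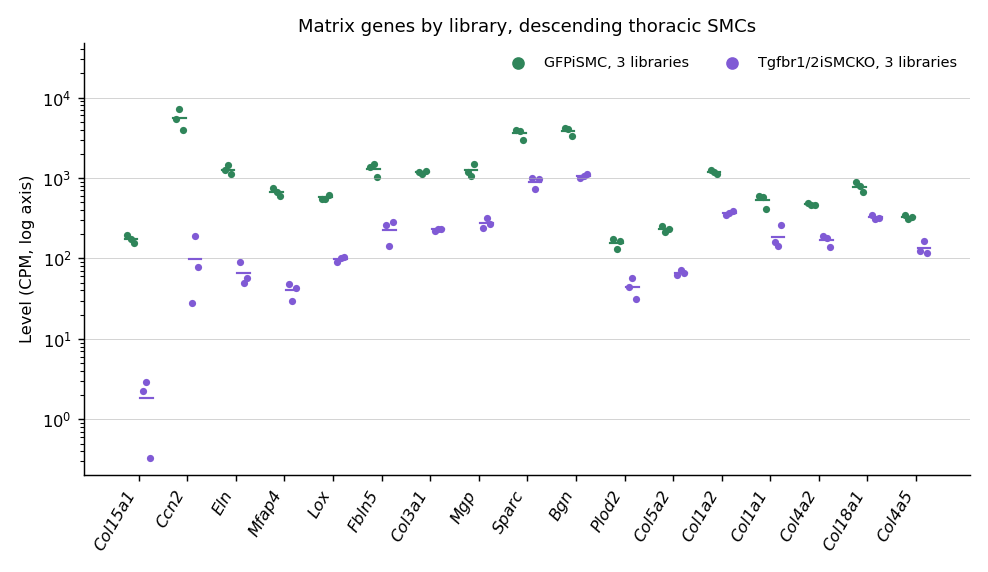
Levels of the 17 ECM genes that the study names, in CPM on a log axis, with a point for each of the 3 GFPiSMC (green) and 3 Tgfbr1/2iSMCKO (purple) descending libraries and a line at each group's mean. The groups do not overlap for any of the genes, and the gap is widest for *Col15a1*, *Ccn2*, *Eln*, and *Mfap4*.

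Matricellular proteins sit in the matrix and signal to cells more than they bear load. The list of these proteins together with fibronectin and tenascins gave 7 lower genes of 22 tested and none higher. The median log2 fold change of the list was −1.18, and over all genes 0.594% were called lower. *Ccn2*, a CCN protein long used as a readout of TGF-β and of YAP/TEAD activity, was at 5399, 7281, and 3935 CPM in GFPiSMC, the highest mean level of any gene that fell, and at 28.1, 191, and 78.0 CPM in Tgfbr1/2iSMCKO. The 55.9-fold fall (log2 fold change −5.80, SE 0.71, adjusted p = 0.0115) came with Tgfbr1/2iSMCKO libraries far apart from each other, and without replicate 3 of that group the adjusted p was 0.0543. The noncoding *Gm15270*, whose exons overlap *Ccn2* on the opposite strand, was at 424, 706, and 263 CPM and at 15.5, 19.2, and 21.9 CPM. The library kit is not described as keeping strand, so reads of these overlapping genes cannot be told apart. *Fn1* (fibronectin) was at 2083, 926, and 1483 CPM against 213, 389, and 315 CPM, and *Sparc*, a collagen-binding protein, at 3973, 3867, and 2987 CPM against 993, 734, and 982 CPM. *Mgp* (matrix Gla protein, an inhibitor of calcification) and *Ccn5* fell by 2.19 and 2.43, and *Postn* (periostin) and *Tnc* (tenascin C) by 1.42 and 1.44 on the log2 scale. Of these, *Fn1*, *Ccn5*, *Tnc*, and *Postn* had highest adjusted p values of 0.131, 0.182, 0.180, and 0.0749 without Tgfbr1/2iSMCKO replicate 1. *Ccn1*, the closest relative of *Ccn2*, was at 1272, 2275, and 180 CPM against 102, 351, and 79.2 CPM. Its GFPiSMC replicate 3 lay below Tgfbr1/2iSMCKO replicate 2, and the difference did not pass (log2 fold change −2.81, SE 0.88, adjusted p = 0.301).

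The proteoglycans *Bgn* (biglycan) and *Aspn* (asporin), small leucine-rich proteins that bind collagen fibrils, were the lower members among 22 tested, and none was higher (list median −0.67). *Bgn* was at 4120, 4112, and 3291 CPM against 986, 1045, and 1108 CPM, and *Aspn* at 63.3, 58.1, and 69.9 CPM against 1.91, 7.41, and 5.58 CPM (highest adjusted p = 0.0660 without GFPiSMC replicate 1). The sugar chain enzymes *Chst3* and *Ext1* were lower among 36 tested genes of glycosaminoglycan synthesis (log2 fold changes −1.83 and −1.51). Among 27 enzymes and chaperones of collagen folding, *Plod2* (a lysyl hydroxylase) and *P3h2* (a prolyl 3-hydroxylase) were lower, by 1.82 and 1.73 on the log2 scale, with *P3h2* overlapped by *Gm4524* on the opposite strand. *Chst3*, *Ext1*, *Plod2*, and *P3h2* each lost the call without at least 1 library. Their highest adjusted p values were 0.206, 0.103, 0.160, and 0.117, each without Tgfbr1/2iSMCKO replicate 1. None of 30 genes of endoplasmic reticulum chaperones and secretory traffic passed, and the list median was −0.52. Of these 30, however, 14 had libraries that did not overlap in the downward direction, beside 8.34% of all genes. None of 21 basement membrane genes other than collagens passed (median −0.44). Of these 21, however, 7 lay entirely below the controls, beside 8.34% of all genes, and none entirely above. An unadjusted p under 0.05 was reached by 6 of them, beside 9.40% of all genes. None of 34 metalloproteinases, ADAMTS proteinases, and their inhibitors passed (median 0.01). Of these 34, however, 7 lay entirely below the controls and 4 entirely above, beside 8.34% and 7.45% of all genes. The unadjusted p was under 0.05 for 12 of them, beside 9.40% of all genes.

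The promoter letters of some of these genes are shown because matrix genes fell together. The windows are the 250 bases before the RefSeq start (GRCm38.p6), given 5′ to 3′ on the gene's strand, and capitals mark matches on either strand to CAGAC (a SMAD motif), CATTCC (a TEAD motif), TGANTCA (AP-1), TATAAA, and the CArG box, which do not overlap each other here. They belong to *Col3a1* (chr1:45311288-45311537, plus strand), *Postn* (chr3:54360857-54361106, plus), *Tnc* (chr4:64047016-64047265, minus), *Mylk4* (chr13:32783965-32784214, minus), and *Elmo1* (chr13:20090257-20090506, plus), a gene that rose.
Col3a1: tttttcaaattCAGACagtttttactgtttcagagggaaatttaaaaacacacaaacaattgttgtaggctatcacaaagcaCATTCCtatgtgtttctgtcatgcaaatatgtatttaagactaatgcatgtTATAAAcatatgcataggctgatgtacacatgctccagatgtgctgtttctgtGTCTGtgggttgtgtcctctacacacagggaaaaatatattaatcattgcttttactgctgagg
Postn: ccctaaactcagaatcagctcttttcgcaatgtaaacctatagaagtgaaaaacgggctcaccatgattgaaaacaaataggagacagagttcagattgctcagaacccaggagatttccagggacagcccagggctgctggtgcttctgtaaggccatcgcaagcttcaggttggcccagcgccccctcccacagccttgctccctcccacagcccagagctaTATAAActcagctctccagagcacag
Tnc: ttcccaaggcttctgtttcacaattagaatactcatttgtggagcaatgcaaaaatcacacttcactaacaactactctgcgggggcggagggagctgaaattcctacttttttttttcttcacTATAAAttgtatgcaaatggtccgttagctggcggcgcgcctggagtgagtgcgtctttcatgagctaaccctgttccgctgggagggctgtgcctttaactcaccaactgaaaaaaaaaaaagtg
Mylk4: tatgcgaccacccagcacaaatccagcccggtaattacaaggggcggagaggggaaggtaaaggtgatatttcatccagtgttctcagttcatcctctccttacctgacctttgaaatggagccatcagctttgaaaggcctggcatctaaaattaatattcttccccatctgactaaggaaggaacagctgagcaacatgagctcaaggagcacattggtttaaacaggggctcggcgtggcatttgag
Elmo1: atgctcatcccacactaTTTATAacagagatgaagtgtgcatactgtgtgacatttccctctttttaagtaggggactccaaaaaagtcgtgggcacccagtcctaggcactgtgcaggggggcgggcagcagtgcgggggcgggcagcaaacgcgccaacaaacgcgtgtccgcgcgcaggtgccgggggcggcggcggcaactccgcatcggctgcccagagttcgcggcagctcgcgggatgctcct

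By symbol, 73 of the 114 lower genes, 18 of the 34 higher genes, and 12487 of the tested genes matched a RefSeq promoter. CAGAC stood in 33 (45.2%) of the 73 windows, beside 41.0% of the 12487, and CATTCC in 10 (13.7%), beside 10.9%. TGANTCA was in 2 (2.74%), beside 4.48%, and the CArG box in none, beside 1.14%. TATAAA was in 7 (9.59%), beside 7.47%. Of the 18 windows of higher genes, 5 (27.8%) held CAGAC, 4 (22.2%) CATTCC, 3 (16.7%) TATAAA, and none TGANTCA or the CArG box. In the printed windows, *Col3a1* held CAGAC on both strands, and *Mylk4* held no match.

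Among 23 tested TGF-β feedback and target genes, 4 were lower and none higher (median log2 fold change −0.87). Besides *Ccn2* they included *Pmepa1*, a membrane protein that limits SMAD signaling, and *Nox4*, an NADPH oxidase. *Pmepa1* was at 353, 368, and 290 CPM against 29.7, 36.3, and 37.8 CPM (log2 fold change −3.29, SE 0.20, adjusted p = 0.00068). *Nox4* was at 619, 633, and 793 CPM against 140, 184, and 139 CPM. *Smad7*, the inhibitory SMAD, overlapped between groups, at 77.0, 53.4, and 35.0 CPM against 35.6, 22.6, and 34.9 CPM. *Skil*, which encodes the corepressor SnoN, was at 25.9, 28.9, and 16.7 CPM against 77.2, 18.0, and 9.24 CPM, with Tgfbr1/2iSMCKO replicate 1 above all other libraries.

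Of 27 genes of ligands, other receptors, and SMADs, *Fstl1* alone passed (3563, 3546, and 3192 CPM against 1419, 1459, and 1685 CPM, log2 fold change −1.17, highest adjusted p = 0.118 without Tgfbr1/2iSMCKO replicate 1). *Tgfb2*, the ligand with the highest counts of the 3, was at 258, 237, and 238 CPM against 170, 150, and 169 CPM, which did not overlap and did not pass (log2 fold change −0.58, adjusted p = 0.199). *Tgfbr3* (betaglycan, a coreceptor) was at 90.2, 77.5, and 109 CPM against 116, 158, and 144 CPM (adjusted p = 0.365). In the BMP branch of the family, *Bmp3* was the lower gene among 20 tested, at 51.6, 58.8, and 71.7 CPM against 9.07, 15.7, and 11.5 CPM (log2 fold change −2.33, highest adjusted p = 0.0850 without Tgfbr1/2iSMCKO replicate 1). The BMP target *Id1* was at 236, 162, and 173 CPM against 262, 195, and 222 CPM.

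**Figure D3:**
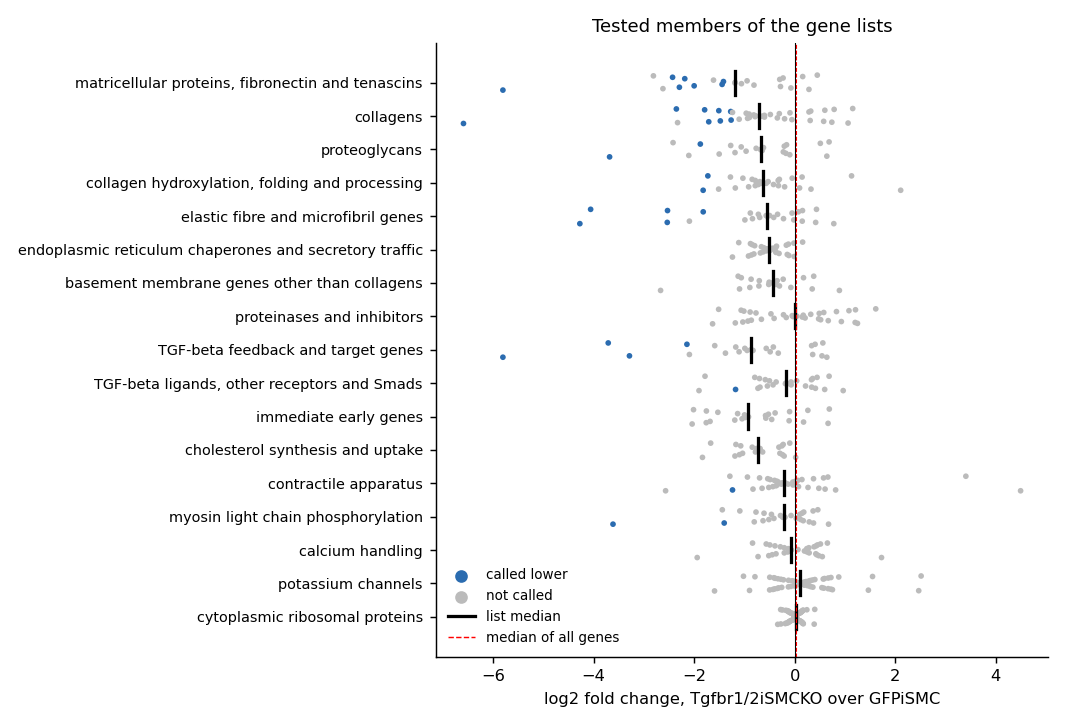
log2 fold change of every tested member of 17 gene lists in descending SMCs (x axis, Tgfbr1/2iSMCKO over GFPiSMC), with members called lower in blue, others in gray, and the list median as a black bar. The dashed red line is the median of all genes, 0.036. Matrix and TGF-β target lists have their medians and blue points to the left, and the ribosomal proteins lie between −0.34 and 0.4.

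Contractile genes gave few calls. Of 37 tested, *Myh10* (nonmuscle myosin heavy chain IIB) was lower (log2 fold change −1.24, highest adjusted p = 0.276 without Tgfbr1/2iSMCKO replicate 1), none was higher, and the median was −0.22. With falls under the 2-fold limit also counted, 2 of the 37 had an adjusted p under 0.05. Of the same 37, however, 10 lay entirely below the controls and 5 entirely above, beside 8.34% and 7.45% of all genes. An unadjusted p under 0.05 was reached by 11, beside 9.40% of all genes. The list held 7.51% ± 0.486 of counts in GFPiSMC and 7.43% ± 0.317 in Tgfbr1/2iSMCKO, a share set mostly by its abundant members. *Acta2* (smooth muscle actin) was at 30497, 30092, and 31517 CPM against 27535, 30555, and 21012 CPM, and *Myh11* (smooth muscle myosin heavy chain) at 3072, 3719, and 2506 CPM against 3037, 2803, and 3874 CPM. Both overlapped between the groups. *Tagln* was lower in all 3 Tgfbr1/2iSMCKO libraries, at 6040, 6098, and 4961 CPM against 4379, 4569, and 4015 CPM, without passing (adjusted p = 0.450). *Actc1*, the cardiac actin, was at 0.267, 0.967, and 0.484 CPM against 8.78, 28.5, and 2.03 CPM, with the Tgfbr1/2iSMCKO libraries far apart (log2 fold change 4.50, adjusted p = 0.103).

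In the list of 27 tested genes that set the phosphorylation of myosin light chains, the lower genes were *Mylk4* and *Rgs5*. *Mylk4* was at 341, 337, and 380 CPM against 24.7, 31.7, and 30.1 CPM, a 12.2-fold fall with little spread in either group (log2 fold change −3.61, SE 0.19, adjusted p = 0.00068). *Mylk*, the main smooth muscle kinase, lay the other way, at 1748, 1836, and 1538 CPM against 2062, 2247, and 2339 CPM, and did not pass (log2 fold change 0.38, SE 0.15, adjusted p = 0.476). *Mylk2* was under 10 CPM in every library (log2 fold change −1.44, SE 0.80, adjusted p = 0.686), and *Mylk3* was not above the filter on low counts. *Rgs5*, a brake on G protein signaling in mural cells, was at 4686, 3933, and 3832 CPM against 1233, 1322, and 2161 CPM (highest adjusted p = 0.231 without Tgfbr1/2iSMCKO replicate 1). None of 20 vasoconstrictor receptors, 31 genes of cyclic nucleotide relaxation, 33 of calcium handling, or 60 potassium channel genes passed, with medians of −0.20, 0.13, −0.06, and 0.12. In the same order, 7, 3, 4, and 6 genes had an unadjusted p under 0.05, beside 9.40% of all genes. Of the vasoconstrictor receptors, 5 lay entirely below the controls and 2 entirely above, beside 8.34% and 7.45% of all genes.

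Genes of cell adhesion gave few calls. Of 17 integrins tested none passed (median −0.29), although 7 had an unadjusted p under 0.05, beside 9.40% of all genes. Of the 17, 5 lay entirely below the controls and 2 entirely above, beside 8.34% and 7.45% of all genes. *Itga8* and *Itgb1*, the main SMC integrin chains, had log2 fold changes of −0.35 (SE 0.18, adjusted p = 0.629) and −0.50 (SE 0.16, adjusted p = 0.301). *Itgb1* was at 2075, 1834, and 2008 CPM against 1508, 1457, and 1232 CPM and passed in the 12-library fit (adjusted p = 0.0373) and with the number of sorted cells as a covariate (0.0488). Of 30 focal adhesion genes, *Nedd9* was lower (log2 fold change −1.49, highest adjusted p = 0.244 without Tgfbr1/2iSMCKO replicate 1). Among 14 tested genes of the ELMO and DOCK families, taken by name, *Elmo1* was higher and *Dock10* lower. *Elmo1* was at 5.86, 7.01, and 4.80 CPM against 35.8, 28.5, and 38.4 CPM (log2 fold change 2.54, SE 0.29, adjusted p = 0.00779, highest 0.0809 without GFPiSMC replicate 1). *Dock10* was at 41.9, 47.8, and 28.6 CPM against 9.24, 11.6, and 10.4 CPM (log2 fold change −1.92, highest adjusted p = 0.189 without Tgfbr1/2iSMCKO replicate 1).

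Several lists shifted downward in their median without many calls. For 23 genes of cholesterol synthesis and uptake the median was −0.73, and 12 did not overlap in the downward direction (beside 8.34% of all genes). Of these 23, 13 had an unadjusted p under 0.05 (beside 9.40% of all genes), and none passed. Chosen after its values were seen, *Fdps*, an enzyme of isoprenoid synthesis, was at 101, 103, and 104 CPM against 48.8, 38.8, and 55.9 CPM (log2 fold change −1.10, adjusted p = 0.0576). For 24 immediate early genes the median was −0.93, 4 did not overlap in the downward direction (beside 8.34% of all genes), and none passed. *Fos* was at 197, 219, and 21.8 CPM against 49.1, 64.8, and 15.7 CPM, so that GFPiSMC replicate 3 lay among the Tgfbr1/2iSMCKO libraries. None of 44 tested smooth muscle transcription factors, 27 Hox genes, 18 Notch pathway genes, 21 interferon response genes, 61 guidance genes, 22 genes of serine, glycine, and proline synthesis, 17 clock genes, 13 mitochondrially encoded genes, or 80 ribosomal proteins passed. In the same order, 11, 4, 2, 4, 12, 5, 6, 0, and 0 had an unadjusted p under 0.05, beside 9.40% of all genes. Entirely below the controls lay 4, 1, 0, 0, 8, 4, 5, 0, and 0, beside 8.34% of all genes. Entirely above them lay 9, 5, 2, 4, 4, 0, 1, 0, and 0, beside 7.45% of all genes. Single calls came from the lists of Wnt (*Fzd5*, a Wnt receptor, higher), growth factor (*Hbegf*, an EGF receptor ligand, lower), insulin-like growth factor (*Htra1*, a serine protease, lower), calcification (*Mgp*, above), and cell cycle genes (*Cdkn1a*, the p21 inhibitor of the cell cycle, lower). *Fzd5* and *Hbegf* had highest adjusted p values of 0.199 and 0.158 without GFPiSMC replicate 1, and *Htra1* of 0.0749 without Tgfbr1/2iSMCKO replicate 1. *Cdkn1a* was at 151, 175, and 158 CPM against 53.0, 39.8, and 52.0 CPM (log2 fold change −1.74, highest adjusted p = 0.0664 without Tgfbr1/2iSMCKO replicate 1).

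Of the called genes, 75 lower and 31 higher were in none of the lists. By size of fall, the largest among genes with at least 100 counts on average included *Nupr1*, a stress-induced nuclear protein, and *Wdr95*, a WD repeat gene. *Nupr1* was at 1709, 1466, and 1228 CPM against 109, 76.5, and 30.2 CPM (log2 fold change −4.35, SE 0.45, adjusted p = 0.00558). *Wdr95* was at 31.2, 32.2, and 22.3 CPM against 0.622, 0.463, and 0.299 CPM (log2 fold change −5.95, SE 0.41, adjusted p = 0.00083). The processed pseudogenes *Gm6969* and *Pcna-ps2* fell by 5.46 and 4.14 on the log2 scale, and reads of such copies can be shared with their parent genes (*Pcna-ps2* had a highest adjusted p of 0.0641 without Tgfbr1/2iSMCKO replicate 1). The noncoding *AA465934* was at 34.2, 26.5, and 46.1 CPM against 2.44, 1.26, and 2.09 CPM. Chosen after their values were seen, *Csrp2*, a LIM protein of SMCs, was at 1309, 1436, and 1089 CPM against 284, 199, and 255 CPM, and *Itgbl1*, an integrin beta-like secreted protein, at 333, 414, and 241 CPM against 29.8, 29.5, and 46.7 CPM. Both kept their calls with each library left out.

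The largest rises were in genes with few or no counts in the controls. The noncoding *E130102H24Rik* was at 0, 0, and 0.0403 CPM in GFPiSMC, where the last value is 1 count, and at 14.3, 20.9, and 15.4 CPM in Tgfbr1/2iSMCKO (adjusted p = 0.00083, and 0.0603 in the 12-library fit). The processed pseudogenes *Gm4864* and *Gm10093* were at up to 0.363 and 1.49 CPM in GFPiSMC and at 10.8 to 19.6 and 13.4 to 24.1 CPM in Tgfbr1/2iSMCKO, and *Gm4864* had a highest adjusted p of 0.0812 without Tgfbr1/2iSMCKO replicate 1. *Mis12*, a kinetochore gene whose exons overlap *Derl2* on the opposite strand, was at 4.30, 2.83, and 2.50 CPM against 29.9, 24.9, and 33.2 CPM (log2 fold change 3.19, SE 0.33, adjusted p = 0.00549, and 0.0844 in the 12-library fit), with a log2 fold change of −0.11 in ascending/arch SMCs. *Derl2* itself was at 155, 140, and 232 CPM against 105, 178, and 150 CPM, so that *Mis12* was the less abundant gene of the pair in every library.

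*Itih4*, which encodes an inter-alpha-trypsin inhibitor heavy chain, was the most abundant gene that rose. It was at 381, 445, and 303 CPM against 1667, 853, and 2324 CPM (log2 fold change 2.10, SE 0.35, adjusted p = 0.0403, highest 0.218 without GFPiSMC replicate 1). *Ighm*, the immunoglobulin mu constant region, was at 6.70, 11.3, and 8.58 CPM against 80.9, 86.8, and 32.9 CPM (log2 fold change 2.91, adjusted p = 0.0215, highest 0.126 without GFPiSMC replicate 1). Leukocyte markers summed to 13.9, 8.19, and 16.8 CPM and to 15.8, 13.8, and 27.5 CPM in the same libraries, so that Tgfbr1/2iSMCKO replicate 3, with the least *Ighm* of its group, had the most of them. Their part in the rise was not tested. *Nrgn* (neurogranin), *Nap1l5*, and *Gpr137b-ps* rose by 2.59, 2.29, and 2.75 on the log2 scale, and each lost its call without any of at least 5 libraries (highest adjusted p = 0.137, 0.231, and 0.127, each without GFPiSMC replicate 1). A locus with no symbol in the annotation, ENSMUSG00000113525.1, was at 43.6, 69.7, and 39.2 CPM against 216, 181, and 243 CPM (highest adjusted p = 0.116 without GFPiSMC replicate 1).

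Another 4 of the 34 genes that rose are described here, of which *Cidea* is a called member of the adipocyte marker list and the others, outside the rule for named genes, were chosen after their values were seen. *Scd1*, the stearoyl-CoA desaturase, was at 55.2, 58.7, and 54.8 CPM against 122, 121, and 105 CPM, and *Cidea*, a lipid droplet protein, at 33.7, 37.3, and 26.4 CPM against 104, 81.3, and 110 CPM. *Ppargc1a*, a coactivator of mitochondrial genes, was at 5.37, 6.32, and 5.40 CPM against 25.9, 26.9, and 15.1 CPM, and *Aldh6a1*, an enzyme of valine breakdown, at 230, 203, and 243 CPM against 467, 509, and 512 CPM. All 4 calls were lost without at least 3 of the 6 libraries (highest adjusted p = 0.263, 0.165, 0.217, and 0.131, the first pair without Tgfbr1/2iSMCKO replicate 1 and the second without GFPiSMC replicate 1). Adipocyte markers, among which *Cidea* was counted, summed to 104, 134, and 164 CPM and to 171, 171, and 174 CPM, which did not overlap. *Fabp4*, the most abundant of them, was at 69.5, 95.5, and 135 CPM against 65.3, 87.9, and 63.5 CPM, and the defining *Adipoq* was under 1 CPM in every library. Their part in these rises was not tested.

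**Figure D4:**
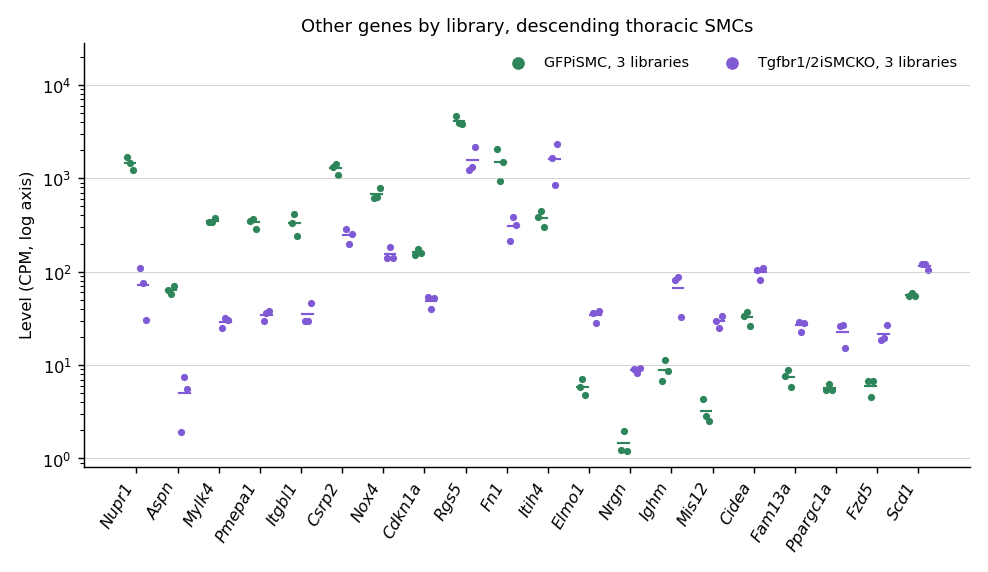
Levels of genes outside the 17 ECM genes, in CPM on a log axis, by library as green (GFPiSMC) and purple (Tgfbr1/2iSMCKO) points with a line at each mean. The 10 genes on the left, from *Nupr1* to *Fn1*, were lower and the 10 on the right, from *Itih4* to *Scd1*, were higher, with no overlap of the groups.

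A block of zinc finger genes on chromosome 2 had almost no counts in Tgfbr1/2iSMCKO SMCs. Between *Gm14295* and *Zfp971* (chr2:176798612-178034022), 12 genes were tested, of which 10 were lower and none was higher, and all 12 lay below the controls without overlap. Over all genes, 0.594% were called lower and 8.34% lay entirely below the controls. The span was chosen after the values were seen and runs between called genes, so these counts are not a test. Together the 10 lower genes had 1469, 1344, and 1462 counts in the GFPiSMC libraries and 0, 1, and 8 counts in the Tgfbr1/2iSMCKO libraries. Against a floor of 3 counts in each library, *Gm14295* was at least 63.5-fold, *Gm14326* at least 62.1-fold, *Zfp971* at least 59.6-fold, *Gm14410* at least 45.3-fold, and *Gm14322* at least 42.9-fold lower. *Gm14325*, the largest of the falls among genes with at least 100 counts on average, was at 13.4, 7.88, and 12.4 CPM against 0, 0, and 0.199 CPM (highest adjusted p = 0.0787 without Tgfbr1/2iSMCKO replicate 1). Without the same library *Zfp971* had an adjusted p of 0.0550. *Gm14327*, *Gm14418*, and *Gm14412* lost their calls without any of 6, 5, and 3 libraries. Their highest adjusted p values were 0.152, 0.123, and 0.101, each without GFPiSMC replicate 1. The tested genes of the span that were not called, *Zfp970* and *Gm14411*, had adjusted p values of 0.135 and 0.0533. In the ascending/arch libraries the same 10 genes had 4290 counts in GFPiSMC and 25 in Tgfbr1/2iSMCKO, beside 4275 and 9 in the descending libraries.

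These genes resemble each other in sequence, so that reads can be shared among them and the values of single members are uncertain. The 7 lower genes of the block with a RefSeq promoter share an unbroken run of 54 bases, given below in capitals with up to 20 bases on each side (GRCm38.p6, 5′ to 3′ on the gene's strand) to show how alike the members are. Among the other promoters of tested genes, 3 held the whole run, those of *Zfp970*, *Gm4724*, and *Gm6710*, all on chromosome 2. The last 2 did not pass, with log2 fold changes of 2.66 and −0.52.
Gm14295: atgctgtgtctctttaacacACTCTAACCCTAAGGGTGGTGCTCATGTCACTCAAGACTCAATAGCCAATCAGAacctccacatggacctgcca
Gm14322: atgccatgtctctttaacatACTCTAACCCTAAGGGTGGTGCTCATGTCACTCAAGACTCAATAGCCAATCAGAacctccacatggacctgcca
Gm14325: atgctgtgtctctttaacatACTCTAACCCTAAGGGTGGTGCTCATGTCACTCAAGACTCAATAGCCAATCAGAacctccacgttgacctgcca
Gm14326: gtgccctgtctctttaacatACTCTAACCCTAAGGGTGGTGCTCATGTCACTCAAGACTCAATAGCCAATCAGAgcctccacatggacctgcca
Gm14403: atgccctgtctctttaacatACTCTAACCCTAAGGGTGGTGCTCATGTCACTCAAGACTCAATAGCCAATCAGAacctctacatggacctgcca
Gm14410: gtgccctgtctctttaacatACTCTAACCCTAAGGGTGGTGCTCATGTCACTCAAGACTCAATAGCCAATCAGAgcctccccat
Zfp971: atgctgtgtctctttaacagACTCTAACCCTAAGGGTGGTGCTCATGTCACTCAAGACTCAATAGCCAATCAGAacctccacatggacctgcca

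The windows lie at chr2:176798478-176798571 (*Gm14295*, plus strand), chr2:177759136-177759229 (*Gm14322*, plus), chr2:177840384-177840477 (*Gm14325*, minus), chr2:177957355-177957448 (*Gm14326*, minus), chr2:177498077-177498170 (*Gm14403*, plus), chr2:177206497-177206580 (*Gm14410*, minus), and chr2:178023141-178023234 (*Zfp971*, plus). Within 5 Mb of *Tgfbr1*, 95 genes were tested, of which *Col15a1* was lower and *Gm12504* higher (2.11% called). Around *Tgfbr2*, *Susd5* was lower among 81 tested genes (1.23% called). Over all genes, 0.594% were called lower and 0.177% higher. *Susd5* was at 957, 1001, and 646 CPM against 349, 325, and 426 CPM (highest adjusted p = 0.276 without Tgfbr1/2iSMCKO replicate 1). Flanking DNA and the floxed alleles belong to the same mouse line and cannot be told apart from the deletion here. Of the 114 lower and 34 higher genes, 35 and 11 have exons that overlap another gene, mostly on the opposite strand.

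Whether receptor loss acted differently in the descending than in the ascending/arch segment was tested in a fit of all 12 libraries. This fit did not use that both segments came from the same animals. With the animal as a block, 0 genes had an adjusted p under 0.05 and 818 an unadjusted p under 0.05. The values that follow are from the fit without the block. Of 22320 genes, 0 (0.0%) had an adjusted p under 0.05 by edgeR, 659 (2.95%) had an unadjusted p under 0.05, and DESeq2 gave 11. *Gpr21*, an orphan receptor gene inside *Rabgap1*, came closest (adjusted p = 0.115). In descending libraries it was at 0.153, 0.245, and 0.201 CPM in GFPiSMC and at 6.13, 10.9, and 5.33 CPM in Tgfbr1/2iSMCKO, and in ascending/arch libraries at 4.29, 5.25, and 6.16 CPM and at 6.31, 2.04, and 6.48 CPM. The descending GFPiSMC libraries were thus the low ones of the 4 groups. *Icam2*, an adhesion molecule of endothelial cells, had no count in the descending GFPiSMC libraries and was at 1.74, 1.85, and 0.864 CPM in Tgfbr1/2iSMCKO, at least 13.2-fold higher against a floor of 3 counts per library. Its call in the fit of 6 libraries (adjusted p = 0.0343) was lost with each of the 6 left out. The highest adjusted p was 0.201, without Tgfbr1/2iSMCKO replicate 1. The part of the endothelial markers given above in this rise was not tested. *Icam2*, *Gnal*, *Gm47350*, and *Zfp961* had the next smallest p values, all with adjusted p values above 0.8. Chosen after its values were seen, *Creb1*, a transcription factor of the cAMP response, was at 81.3, 80.3, and 109 CPM against 12.4, 10.8, and 17.1 CPM in descending SMCs (highest adjusted p = 0.0543 without Tgfbr1/2iSMCKO replicate 1), with a log2 fold change of 0.91 in ascending/arch SMCs (unadjusted p of the difference = 0.0120). *Enah*, an actin regulator chosen in the same way, fell by 1.45 in descending SMCs (highest adjusted p = 0.116 without Tgfbr1/2iSMCKO replicate 1) and had 0.13 in ascending/arch SMCs (unadjusted p of the difference = 0.000566). None of these differences passed the adjusted test, so no gene is shown here to respond in the descending segment alone.

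**Figure D5:**
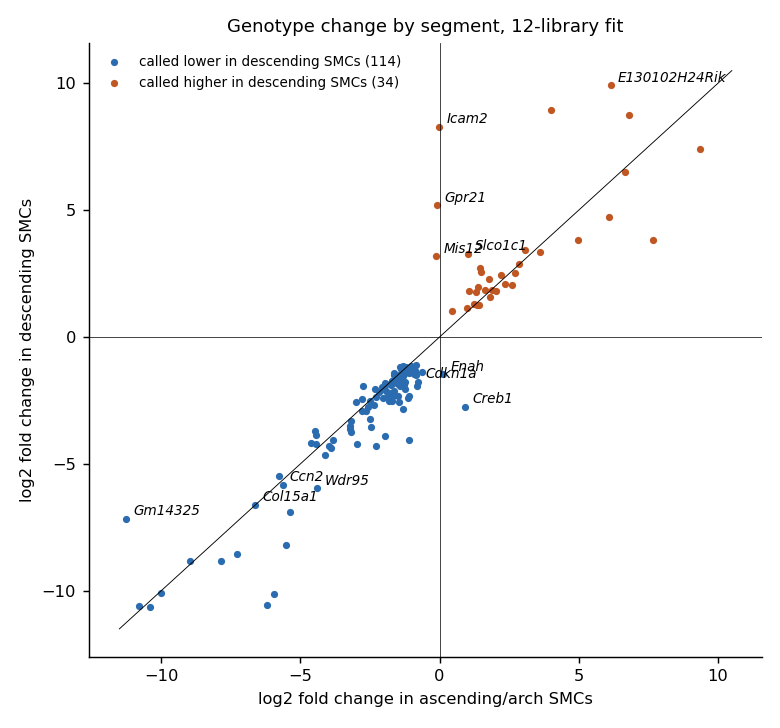
log2 fold change (Tgfbr1/2iSMCKO over GFPiSMC) of the 148 genes called in descending SMCs, in ascending/arch SMCs (x axis) and descending SMCs (y axis), both from the 12-library fit, with the line of equality. Blue genes were called lower and orange genes higher, and *Gpr21*, *Icam2*, *Mis12*, *Enah*, and *Creb1* lie near or past 0 on the x axis.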

How the data were processed

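RNA of GFP-positive SMCs sorted from descending thoracic aortas was sequenced. The authors trimmed reads with Trim Galore, aligned them with HISAT2 to GRCm38, quantified GENCODE M15 with StringTie, and deposited whole-number counts for 52636 genes in 12 libraries, without normalization. StringTie estimates coverage, the step from coverage to these counts is not given in the sources used here, and counts of 2 (32279) outnumber counts of 1 (22574). Here, the 6 descending libraries were fitted alone with edgeR 4.0.16 in R 4.3.3 (filterByExpr, TMM, quasi-likelihood test, Benjamini-Hochberg over 19197 genes, common biological coefficient of variation 0.429). SE was taken as the log2 fold change divided by √F. Total counts were 22900103 to 31392396. The difference between segments used group means over 12 libraries. Symbols and coordinates came from GENCODE M21 (GRCm38), promoters from RefSeq.

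Members and lists were chosen with earlier results of these data known. Named genes are *Tgfbr1*, *Tgfbr2*, genes the study names, called list members, the 12 largest rises and falls among called genes with at least 100 counts on average, the 5 smallest segment p values, and called genes within 5 Mb of the receptors. Not all are printed, and some results are not reported here. Alternatives were DESeq2 1.42.0, other scalings, filters and thresholds, a replicate block, 12 libraries, and each library left out. Steps were tested on simulated data.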

Additional observations from a re-analysis of the deposited data

How the results depend on the processing

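The counts of lower and higher genes moved with the method. The 114 lower genes became 323 with DESeq2, 222 in the 12-library fit, 198 with the number of sorted cells as a covariate, 35 in a test against a 2-fold change, and 13 with the replicate block. The 34 higher genes became 183, 95, 166, 9, and 1 under the same settings. Leaving out each library in turn gave 30 to 88 lower and 4 to 26 higher genes. Without GFPiSMC replicates 1, 2, and 3 there were 37, 54, and 88 lower and 9, 13, and 16 higher genes, and without Tgfbr1/2iSMCKO replicates 1, 2, and 3 there were 30, 85, and 79 lower and 4, 26, and 17 higher. The share of lower genes among calls was 77.0%, against 63.8% with DESeq2 and 54.4% with the covariate, and library size in place of TMM moved the median of all genes from 0.036 to 0.172 and gave 100 lower and 45 higher genes. The replicate block joins animals by number only. Deviations from the group means correlated by 0.0254, −0.462, and −0.528 for animals of the same number over 9394 genes, so the numbers do not pair the animals. Across numbers, GFPiSMC replicate 2 with Tgfbr1/2iSMCKO replicate 3 gave 0.502. GFPiSMC replicate 3 with Tgfbr1/2iSMCKO replicate 2 gave 0.504. These libraries also shared high or low summed fibroblast markers, sums set mostly by *Gsn*. The number of genes that differed between segments was 11 with DESeq2, 1 with no filter beyond 1 count in all, and 0 to 3 with each animal left out (3 without GFPiSMC replicate 3). For 45 genes (the receptors, those the study names, and the largest rises and falls, not the other called list members), 720 values were computed under the alternatives, of which 603 kept their side of the threshold, 115 no longer passed, 2 newly passed, and 0 changed direction. The largest rises and falls were picked as called in the main fit, and the study picked its genes on these libraries. That choice favors keeping the threshold, so these totals do not measure stability. The causes of the differences between settings were not tested.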
